A study of Mus musculus with 6 samples.

Results

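The genes that bring fatty acids into a cell and hold them there, 10 in all, were followed through the differentiation of brown (BAT) and white (WAT) fat cells. They were taken by symbol from the expression table, 10 of 34465 symbols, and comprise the lipase *Lpl* and its anchor *Gpihbp1*, the membrane receptor *Cd36*, the transporters *Slc27a1* and *Slc27a4*, the acyl-CoA synthetases *Acsl1* and *Acsl4*, and the binding proteins *Fabp3*, *Fabp4* and *Fabp5*. All 10 had an FPKM (fragments per kilobase of transcript, scaled to the mapped fragments of a library) reaching 1 in some library and so entered the tests, which covered 14413 genes; *Gpihbp1* passed only through WAT on day 0 and BAT on day 6. 5 of the 10 rose between day 0 and days 4 and 6 (*Fabp4*, *Cd36*, *Acsl1*, *Fabp5* and *Slc27a1*), *Fabp3* fell, and *Lpl*, *Gpihbp1*, *Slc27a4* and *Acsl4* did not pass the test. Of all genes tested, 11.3% rose and 10.6% fell between these days. None of the 10 differed between BAT and WAT in the fit over all 3 days, where 0 of all 14413 genes did.

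The study asked how DNA methylation and gene expression change as brown and white fat cells form. Preadipocytes from the interscapular brown depot (BAT) and the inguinal white depot (WAT) of young BL6 mice were collected as the stromal vascular fraction of digested tissue and grown to confluence, and fat from several mice was used. They were then given a medium with insulin, dexamethasone, IBMX and rosiglitazone, an agonist of the nuclear receptor PPARγ, followed by a maintenance medium. Total RNA was sequenced before induction (day 0) and after it (days 4 and 6), with 1 library for each cell type and day and 6 in all. None of the 6 groups received norepinephrine. No condition had a replicate, so the spread in the fit, which had a term for cell type and for each day, came from how BAT and WAT differed in their course over the days. The time in culture and the inducing medium cannot be told apart.

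Fat cells take most of their fatty acid from triglyceride carried in the blood. Lipoprotein lipase, made by the fat cell and held on the capillary wall by GPIHBP1, splits that triglyceride, CD36 and the SLC27 proteins assist the entry of the freed acids, acyl-CoA synthetases couple them to coenzyme A and so trap them, and the FABPs carry them through the cytosol. Several of these genes are textbook targets of PPARγ, the receptor that directs fat cell formation.

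The libraries held approximately 9.13 M fragments (WAT day 0) to 21.5 M (WAT day 4), as judged from whole-fragment steps among low values. Adipocyte markers such as *Plin1* and *Lipe* summed on day 0 to 231 FPKM (BAT) and 695 (WAT) and later to between 5182 and 6882. *Cfd* alone was 68.6 of the day 0 sum in BAT and 431 in WAT. Of the adipocyte markers 10 of 11 rose, whereas 5 of 10 preadipocyte and stromal markers fell and 0 rose. Macrophage markers also moved. The FPKM of all 13 summed to 26.4, 80.2 and 106 in BAT on days 0, 4 and 6 and to 109, 225 and 415 in WAT. All 13 were highest in WAT on day 6, 9 of 13 rose over both cell types and 0 fell, and *Tyrobp*, *C1qb* and *C1qc* were at 0 in BAT on day 0. Macrophages also express *Lpl*, *Cd36*, *Fabp4*, *Fabp5* and *Acsl1*, and their part in the values below was not tested. In bulk RNA, fewer cells of a type and less RNA per cell cannot be told apart.

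**Figure D1:**
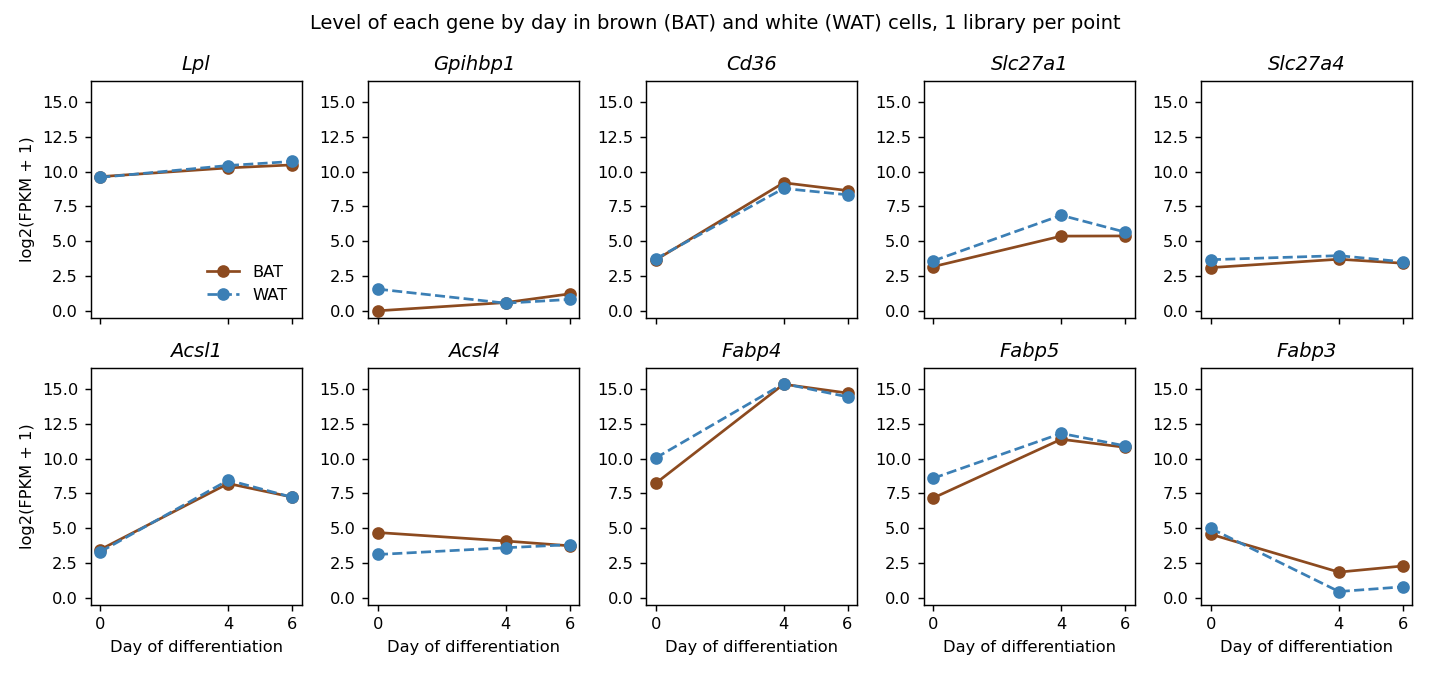
Level of each of the 10 genes as log2(FPKM + 1) against the day of differentiation, with BAT as solid brown lines and WAT as broken blue lines, and 1 library per point with no error. *Fabp4*, *Cd36* and *Acsl1* climb most from day 0 to day 4, *Fabp3* drops in both cell types, and *Lpl* is already near 10 on day 0.

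Promoters are shown for the genes that moved furthest in opposite directions among those in the RefSeq promoter table used here, as the 250 bases before the start of transcription (GRCm38.p6, read along the gene). *Cd36* and *Acsl1* rose and *Fabp3* fell, and *Acsl1* has a pair of starts. Of the 10 genes, 6 were matched in that table and *Fabp4*, *Fabp5*, *Lpl* and *Gpihbp1* were not. Capitals mark matches, on either strand, to GGGCGG (the GC box), to the CCAAT box, to TATAAA (the TATA box) or to a direct repeat of AGGTCA with a spacer of 1 base (DR1, the layout PPARγ binds with its partner RXR) with up to 2 mismatches.
Cd36, chr5:17835897-17836146, minus strand: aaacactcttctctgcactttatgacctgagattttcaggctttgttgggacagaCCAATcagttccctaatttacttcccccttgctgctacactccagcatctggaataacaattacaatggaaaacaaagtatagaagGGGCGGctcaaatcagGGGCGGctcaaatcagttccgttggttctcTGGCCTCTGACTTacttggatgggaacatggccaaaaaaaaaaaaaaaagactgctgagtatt
Acsl1 upstream start, chr8:46470787-46471036, plus strand: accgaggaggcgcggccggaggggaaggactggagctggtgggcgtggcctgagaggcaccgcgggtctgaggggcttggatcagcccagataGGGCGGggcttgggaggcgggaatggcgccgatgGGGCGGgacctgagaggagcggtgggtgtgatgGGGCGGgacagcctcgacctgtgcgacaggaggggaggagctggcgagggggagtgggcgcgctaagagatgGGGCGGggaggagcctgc
Acsl1 downstream start, chr8:46490716-46490965, plus strand: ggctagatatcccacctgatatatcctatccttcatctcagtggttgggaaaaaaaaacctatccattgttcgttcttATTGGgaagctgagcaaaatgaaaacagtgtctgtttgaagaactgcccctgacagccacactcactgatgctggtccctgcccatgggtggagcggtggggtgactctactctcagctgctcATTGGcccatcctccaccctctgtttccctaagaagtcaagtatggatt
Fabp3, chr4:130308488-130308737, plus strand: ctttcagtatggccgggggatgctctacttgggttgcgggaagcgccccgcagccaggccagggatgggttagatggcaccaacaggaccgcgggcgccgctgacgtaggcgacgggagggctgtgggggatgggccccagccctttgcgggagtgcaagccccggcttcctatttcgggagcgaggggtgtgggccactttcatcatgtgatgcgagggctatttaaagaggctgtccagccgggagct
The *Cd36* window held 1 DR1-like match, on the strand opposite to the gene and beginning 63 bases before the start, with 2 mismatches, and such a match was found in 3.24% of 32851 promoter windows of that length. It also held 2 GC boxes and 1 CCAAT. The upstream start of *Acsl1* had 4 GC boxes and 20 CpG dinucleotides, more CpG than 82.1% of all windows, and its downstream start had 2 CCAAT and 2 CpG. The *Fabp3* window had 17 CpG and no match to the 4 motifs. A GC box was present in 32.7% of all windows, CCAAT in 33.8% and TATAAA in 12.4%. These matches are descriptions of the sequence, with no measurement of binding.

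Between day 0 and days 4 and 6, with both cell types in the fit, 5 of the 10 genes rose and 1 fell by limma at an adjusted p under 0.05, where 11.3% of all 14413 genes rose and 10.6% fell. The median difference was 1.65 on the log2(FPKM + 1) scale for the 10 genes and -0.13 for all genes tested. On this scale the change of genes of low FPKM is understated. With no filter on low FPKM none of the 10 was called, nor was any other gene by limma (5296 genes at an unadjusted p under 0.05), and the lowest adjusted p among the 10 were those of *Acsl1* (0.0590) and *Cd36* (0.0606).

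*Lpl* (ENSMUSG00000015568, mm9 chr8:71404390-71431347, plus strand), which encodes the lipase itself, was abundant from the start. On days 0, 4 and 6 its FPKM was 793, 1227 and 1424 in BAT, and in WAT it was 765, 1383 and 1689.6. Both cell types had their lowest value on day 0 and their highest on day 6, at 1.80 times the day 0 value in BAT. In the fit, days 4 and 6 exceeded day 0 by 0.87 ± 0.43 (SE, 6 libraries), which did not pass the test (limma, adjusted p = 0.197), with a 95% confidence interval of -0.17 to 1.90.

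*Gpihbp1* (ENSMUSG00000022579, mm9 chr15:75427088-75428642, plus strand), the anchor that carries the lipase across the endothelium, was near the limit of detection. It was listed at 0 in BAT on day 0 and had an FPKM of 0.509 and 1.32 on days 4 and 6, and in WAT its FPKM was 1.94, 0.461 and 0.762. These values stand for approximately 0, 6, 16, 11, 6 and 9 fragments. A count of 0 in BAT on day 0 allowed up to 0.302 FPKM (3 fragments), and its exact 95% Poisson interval reached 0.371. The intervals of WAT day 0 (0.975 to 3.49 FPKM) and BAT day 6 (0.768 to 2.18) lay above it and overlapped each other. That of WAT day 0 also overlapped those of WAT day 4 (0.172 to 1.02) and WAT day 6 (0.353 to 1.47), and that of BAT day 4 (0.190 to 1.13) overlapped that of BAT day 0; such intervals cover counting error only.

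The WAT day 0 library also had the highest sum of endothelial markers. The summed FPKM of 12 such markers was 72.8 there, 28.4 in BAT on day 0 and 15.6 to 16.7 in the other libraries. *Egfl7* alone was 39.4 of it in WAT and 11.9 in BAT on day 0, and the median of the 12 was 2.20 and 0.991. Of the 12, 9 were highest in WAT on day 0 and 3 in BAT on day 0. Among the defining markers, *Pecam1* was at 4.12 FPKM in WAT day 0 and 1.09 in BAT day 0, *Cdh5* at 2.26 and 3.01, and none of the 12 was at 0 in any library. 1 of the 11 markers tested (*Cdh5*) fell between day 0 and days 4 and 6, which is near the share of all genes that fell (10.6%), and 0 rose. The part of these cells in the *Gpihbp1* values was not tested. The fitted difference of *Gpihbp1* was 0.015 ± 0.47 (SE, limma, adjusted p = 0.986), and without the WAT day 0 library it was 0.91 (adjusted p = 0.0458).

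**Figure D2:**
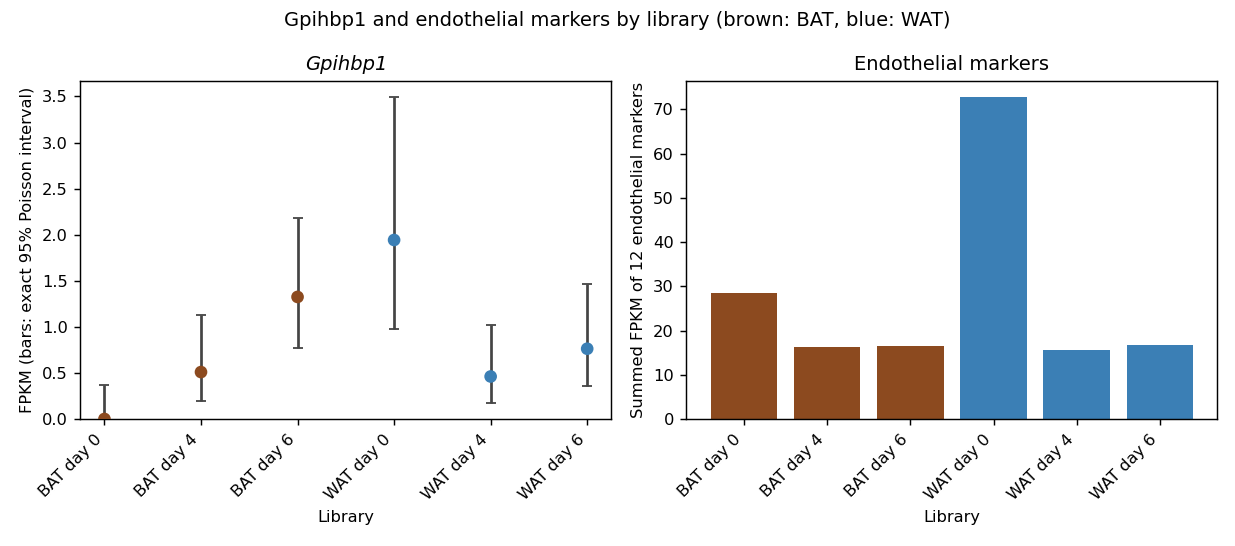
Left, FPKM of *Gpihbp1* in each of the 6 libraries with exact 95% Poisson intervals from the estimated fragments; right, summed FPKM of 12 endothelial markers in the same libraries, with BAT in brown and WAT in blue. WAT day 0 is highest in both panels, at 1.94 and 72.8 FPKM, and BAT day 0 is listed at 0 for *Gpihbp1* and is second for the markers.

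Of 13 other genes that handle the lipase or the particles it acts on, 3 rose and 3 fell. Beside this count and those of the gene lists below stand the shares of all genes, 11.3% risen and 10.6% fallen. The lipase genes that rose were *Angptl4*, an inhibitor of the lipase (FPKM 30.7, 236 and 319 in BAT and 35.0, 117 and 99.0 in WAT on days 0, 4 and 6; 2.36 ± 0.41, adjusted p = 0.0112), *Gm6484*, which RefSeq names *Angptl8*, another secreted regulator of the lipase (3.81 ± 0.27, adjusted p = 0.00110), and *Apoc3*, an apolipoprotein that slows lipolysis (3.98 ± 0.36, adjusted p = 0.00205). Each is known to restrain the lipase or to take part in doing so. Those that fell were the receptor *Lrp1* (-1.77 ± 0.30, adjusted p = 0.0102), the heparan sulfate proteoglycan *Sdc1* (-1.75 ± 0.37, adjusted p = 0.0210) and *Lmf2* (-1.001 ± 0.26, adjusted p = 0.0391). *Lmf1*, which the lipase needs to fold, had a difference of 0.33 ± 0.25 (adjusted p = 0.382). *Vldlr*, a receptor of triglyceride-rich particles, stood on day 0 at 28.1 FPKM (BAT) and 3.22 (WAT) and later at 24.9 to 49.2 (1.54 ± 0.56, adjusted p = 0.103). The median over the 13 genes was -0.28.

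*Cd36* (ENSMUSG00000002944, mm9 chr5:17287508-17394777, minus strand), the receptor also called fatty acid translocase, had an FPKM of 11.5, 585 and 397 in BAT on days 0, 4 and 6 and of 12.2, 440.2 and 320.7 in WAT. Every library of days 4 and 6 lay above both libraries of day 0, and the cell types were close on each day. From day 0 to day 4 it rose 50.8-fold in BAT and 36.0-fold in WAT. By the fit over 6 libraries it rose by 5.05 ± 0.27 (SE, limma, adjusted p = 0.00108).

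Of 12 genes listed for the traffic of CD36 and for the membrane pits called caveolae, 5 rose and 0 fell, with a median of 0.71. The list also held *Scarb1*, *Scarb2* and *Got2*. The caveolins *Cav1* (2.93 ± 0.30, adjusted p = 0.00247) and *Cav2* (3.15 ± 0.27, adjusted p = 0.00182) and the caveolar coat protein *Sdpr* (2.97 ± 0.26, adjusted p = 0.00182) rose most, with *Cav1* at 66.6 and 43.4 FPKM in BAT and WAT on day 0 and 514 and 458 on day 6. *Ehd2*, which sits at the neck of caveolae, rose by 1.32 ± 0.30 and *Scarb1*, the HDL receptor related to *Cd36*, by 1.501 ± 0.28 (adjusted p = 0.0262 and 0.0142). *Zdhhc4* and *Zdhhc5*, which attach palmitate to CD36, had differences of 0.17 and -0.58 that did not pass the test (adjusted p = 0.663 and 0.230). Nor did those of the caveolar coat proteins *Ptrf* (0.40 ± 0.31) and *Prkcdbp* (-0.075 ± 0.28), with a limma adjusted p of 0.394 and 0.868.

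*Slc27a1* (ENSMUSG00000031808, mm9 chr8:74092826-74110607, plus strand), a transporter that also activates the acids it admits, had an FPKM of 8.02, 40.2 and 40.5 in BAT on days 0, 4 and 6 and of 11.005, 115 and 49.2 in WAT. WAT on day 4 stood above all other libraries, at 2.87 times BAT on that day. Over both later days it rose by 2.43 ± 0.33 (SE, limma, adjusted p = 0.00520), and without WAT day 4 it was 2.14 (adjusted p = 0.0544).

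*Slc27a4* (ENSMUSG00000059316, mm9 chr2:29658154-29673042, plus strand), a related transporter, stayed within a narrow range, with an FPKM of 7.58, 12.03 and 9.68 in BAT and 11.7, 14.6 and 10.5 in WAT. In both cell types day 4 was highest, and the groups overlapped. The fitted difference was 0.26 ± 0.27 (limma, adjusted p = 0.512), with a 95% confidence interval of -0.39 to 0.92.

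Within the Slc27 family the shares of the paralogs changed. FPKM is per transcript length, so paralogs can be compared within a library as shares of the family's summed FPKM. *Slc27a1* made up on day 0 19.1% of the family (BAT) and 38.2% (WAT), and 71.5% to 86.5% on days 4 and 6. On day 0 the leading paralog in BAT was *Slc27a6* (50.7%), whereas in WAT *Slc27a4* (40.8%) and *Slc27a1* (38.2%) were close to each other. *Slc27a6*, best known from the heart, had an FPKM of 21.2, 0.219 and 0.215 in BAT and 2.18, 0.161 and 0.596 in WAT and fell by 2.71 on the log2 scale (SE 0.67, limma, adjusted p = 0.0354). *Slc27a3* had an FPKM of 0.759 to 5.06 over the 6 libraries and a difference of -0.82 ± 0.34 (adjusted p = 0.132), and *Slc27a2* and *Slc27a5* did not exceed 0.178 FPKM.

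*Acsl1* (ENSMUSG00000018796, mm9 chr8:47556395-47621405, plus strand), the main long-chain acyl-CoA synthetase of fat cells, had an FPKM of 10.03, 295 and 149 in BAT on days 0, 4 and 6 and of 8.87, 348 and 148 in WAT. Both cell types peaked on day 4, and the 4 later libraries lay above both of day 0. The rise to day 4 was 29.4-fold in BAT and 39.3-fold in WAT. Over days 4 and 6 it rose by 4.39 ± 0.25 (SE, limma, adjusted p = 0.00108).

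*Acsl4* (ENSMUSG00000031278, mm9 chrX:138752536-138825078, minus strand), a synthetase that prefers arachidonic acid, had a lower deposited FPKM after day 0 in BAT and a higher one in WAT. Its FPKM was 24.8, 15.9 and 12.3 in BAT, highest on day 0, and 7.65, 11.1 and 13.1 in WAT, lowest on day 0. By day 6 the levels were close. The fitted difference of days 4 and 6 from day 0 was -0.093 ± 0.38 (limma, adjusted p = 0.881; 95% confidence interval -1.02 to 0.84), and it turned to 0.039 with median-ratio scaling and to 0.35 with the trend of transcript length removed. With that trend removed, days 4 and 6 differed from day 0 by 0.16 and -0.0094 on the log2 scale in BAT and by 0.65 and 0.59 in WAT, so that the decrease in BAT was no longer seen. With median-ratio scaling the directions stayed opposite, at -0.38 and -0.65 in BAT and 0.61 and 0.57 in WAT. Scaling to TPM also kept them opposite, at -1.10 and -1.62 in BAT and 0.56 and 0.78 in WAT.

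In the Acsl family *Acsl1* took 10.6% and 11.1% of the summed FPKM in BAT and WAT on day 0, 85.2% and 88.9% on day 4 and 75.5% and 73.3% on day 6. On day 0 the leading paralog was *Acsl3* in BAT (37.8%), a synthetase of the endoplasmic reticulum and lipid droplets, and *Acsl5* in WAT (63.9%), known from intestine. *Acsl5* had an FPKM of 23.3, 12.3 and 18.0 in BAT and 51.1, 15.4 and 21.5 in WAT (-1.03 ± 0.29, adjusted p = 0.0512). *Acsl3* had an FPKM of 35.8, 22.7 and 18.1 in BAT and 12.2, 17.2 and 19.4 in WAT. Over the 6 libraries this was the second nearest pattern to that of *Acsl4* among 8387 genes (root mean square distance of 0.043 between centred log2 values). It stood between those of *Rbm28* (0.039) and *Mtmr6* (0.051), which are not of the family. For *Acsl4* the decrease in BAT was not seen with the length trend removed. *Acsl6* did not exceed 0.791 FPKM.

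Of 4 other acyl-CoA synthetases tested, 3 rose and 0 fell, with a median of 2.27. Those that rose were *Acss2*, the cytosolic acetyl-CoA synthetase (3.23 ± 0.44, adjusted p = 0.00546), *Acsf2* (1.82 ± 0.30, adjusted p = 0.00942) and *Acss3*, known to act on propionate (2.72 ± 0.44, adjusted p = 0.00910). Of 15 proteins that bind or split acyl-CoA, 7 rose and 0 fell, with a median of 0.79. *Dbi*, the acyl-CoA binding protein, had an FPKM of 206, 1493 and 2519 in BAT and 584, 2030.2 and 1887 in WAT (2.49 ± 0.53, adjusted p = 0.0221). *Scp2*, a lipid carrier (1.87 ± 0.30, adjusted p = 0.00884), and *Acot13*, a thioesterase (1.70 ± 0.31, adjusted p = 0.0125), rose as well, as did *Acbd4*, *Acot2*, *Acot8* and *Them4*.

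**Figure D3:**
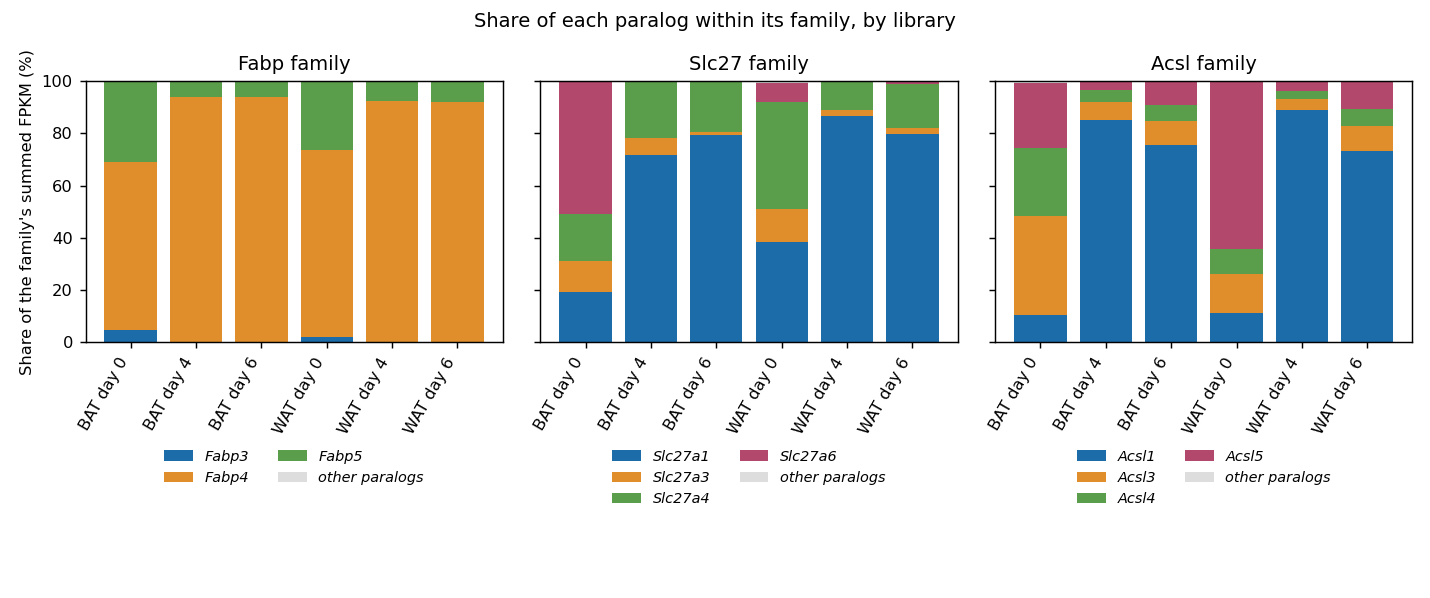
Share of each paralog in the summed FPKM of its family (percent, vertical axis) in each of the 6 libraries, for the Fabp, Slc27 and Acsl families; paralogs that never reach 1% are pooled in grey. *Fabp4* holds 92.0% to 93.9% of its family on days 4 and 6, and *Slc27a1* and *Acsl1* go from 38.2% or less on day 0 to 71.5% or more.

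*Fabp4* (ENSMUSG00000062515, mm9 chr3:10204347-10208576, minus strand), the adipocyte fatty acid binding protein, reached the highest levels of the 10 genes on every day but day 0 in BAT, where *Lpl* was higher. On days 0, 4 and 6 its FPKM was 297, 41438.5 and 26709 in BAT, and in WAT it was 1052, 42705 and 22119. On day 4 it ranked 1st of all genes and on day 6 it ranked 2nd in both cell types, and all 4 later libraries were far above both of day 0. The rise to day 4 was 139-fold in BAT, which began lower, and 40.6-fold in WAT. The fitted difference of days 4 and 6 from day 0 was 5.83 ± 0.93 (SE, limma, adjusted p = 0.00880). It was no longer called when either day 6 library was left out (adjusted p = 0.0574 without BAT day 6 and 0.0544 without WAT day 6), nor without either day 4 library (0.173 without BAT and 0.186 without WAT). The difference itself was then 5.53 and 6.14 without the day 6 libraries and 5.65 and 6.02 without those of day 4, for BAT and WAT in that order, with 1 residual degree of freedom in place of 2.

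*Fabp5* (ENSMUSG00000027533, mm9 chr3:10012548-10016607, plus strand), the epidermal type that fat cells also make, had an FPKM of 143, 2679 and 1791 in BAT and 384, 3584 and 1928 in WAT. Like *Fabp4* it was lowest in BAT on day 0 and peaked on day 4 in both cell types. It rose by 3.35 ± 0.48 (SE, limma, adjusted p = 0.00615), a call lost without BAT day 4 (adjusted p = 0.104) or WAT day 4 (0.0916). The epithelial markers *Krt5* and *Krt14* were at 0 in every library. The 8 such markers summed to 0.731 to 2.26 FPKM, of which *Esr1* alone was 0.717 to 2.22 (0.867 of 2.02 in WAT on day 0). Because *Fabp4* rose further, the ratio of *Fabp4* to *Fabp5* went from 2.08 and 2.74 in BAT and WAT on day 0 to between 11.5 and 15.5 on days 4 and 6.

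The pseudogene *Gm6166* (mm9 chr9:57331720-57332392) had the pattern nearest to that of *Fabp5* among 8387 genes (distance 0.12), and its 673 bases are 98.7% identical to a *Fabp5* transcript over 672 aligned positions. Its FPKM was 4.59% to 6.29% of that of *Fabp5* in every library. Reads of the gene and of this copy may have been shared in the counting, so the level of *Fabp5* is uncertain to that extent.

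*Fabp3* (ENSMUSG00000028773, mm9 chr4:129985839-129992707, plus strand), the heart type, went the other way. On days 0, 4 and 6 its FPKM was 22.6, 2.60 and 3.88 in BAT, and in WAT it was 30.5, 0.368 and 0.729, or approximately 235, 32, 48, 180, 5 and 9 fragments. All 4 later libraries were below both of day 0, by 8.72-fold in BAT and 83.1-fold in WAT on day 4. The fitted difference was -3.43 ± 0.47 (SE, limma, adjusted p = 0.00552), and it was not called without BAT day 4 (adjusted p = 0.0507) or WAT day 4 (0.0569). Skeletal muscle markers, which accompany *Fabp3* in muscle, summed to 3.11, 18.3 and 79.4 FPKM in BAT and 10.1, 5.52 and 15.7 in WAT on days 0, 4 and 6. Most of the BAT sum on day 6 was *Mb* (0.0762, 8.30 and 72.3 FPKM in BAT). Of 3 tested, 2 rose, *Mb* among them, and 5 of the 10 markers were highest in WAT on day 0. *Myf5* was at 0 in all 6 libraries and *Myod1* in 5. The part of muscle cells in the *Fabp3* values was not tested. The pseudogene *Fabp3-ps1* was at 0.751, 0.256 and 0 FPKM in BAT and 3.16, 0 and 0 in WAT. *Gm10570* and *Zcchc17* overlap *Fabp3* on the opposite strand, the latter at 11.6 to 25.0 FPKM, and the libraries were directional.

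The binding proteins thus changed in their proportions. *Fabp4* was on day 0 63.99% (BAT) and 71.6% (WAT) of the family's summed FPKM, and 92.0% to 93.9% on days 4 and 6, *Fabp5* went from 30.8% and 26.1% to between 6.07% and 8.02%, and *Fabp3* from 4.87% and 2.08% to 0.0136% or less. *Fabp7*, the brain type, did not exceed 1.504 FPKM (-0.76 ± 0.42, adjusted p = 0.240). *Fabp4* and *Fabp5* lie in a cluster on chromosome 3, 188 kb apart and on opposite strands. The neighbours of *Fabp4* in the cluster, *Fabp9* at 7.12 kb, *Pmp2* at 20.5 kb and *Fabp12* at 35.6 kb, did not exceed 0.539 FPKM in any library.

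**Figure D4:**
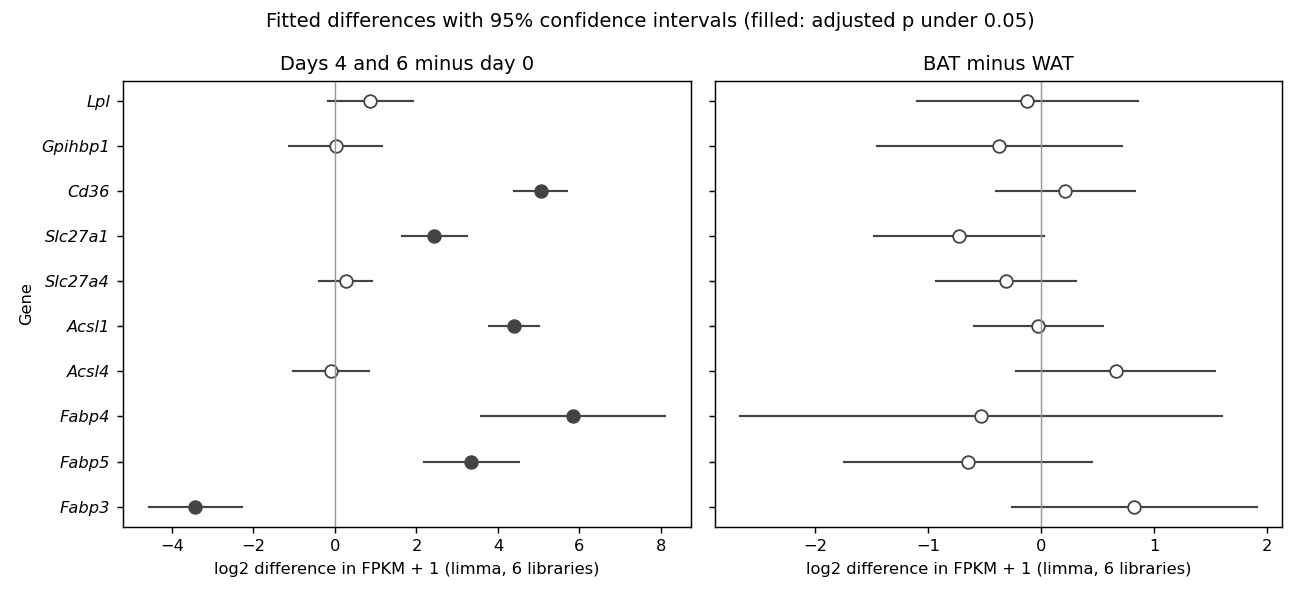
Fitted log2 differences (limma, 6 libraries) with 95% confidence intervals for the 10 genes, for days 4 and 6 minus day 0 on the left and BAT minus WAT on the right; filled points have an adjusted p under 0.05. On the left panel 5 filled points lie to the right of 0 and 1, *Fabp3*, to the left of it, and every interval on the right panel includes 0.

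The regulators of these genes were followed too. Of 10 PPAR, RXR and C/EBP factors and coactivators, 5 rose and 0 fell, with a median of 1.40. *Pparg* had an FPKM of 19.6, 171 and 222 in BAT and 11.9998, 109.7 and 171 in WAT (3.33 ± 0.25, adjusted p = 0.00121). *Cebpa*, which acts with it, rose by 2.73 ± 0.28 (adjusted p = 0.00247), and *Ppara*, *Rxrg* and the coactivator *Ppargc1b* rose as well. *Ppard*, *Rxra*, *Rxrb*, *Cebpb* and *Ppargc1a* did not pass the test.

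Genes whose pattern over the 6 libraries was nearest to that of a rising member included fat cell enzymes. Those nearest to *Cd36* were *Slc36a2*, *Lipe* and *Plin1* (distances 0.17, 0.18 and 0.22), those nearest to *Acsl1* were *Car5b*, *Arxes1* and *Arxes2* (0.16, 0.22 and 0.23), and those nearest to *Fabp4* were *Gpd1*, *Aldh1a7* and *Slc2a4* (0.30, 0.37 and 0.38). *Niacr1*, *Cela1* and *Slc25a1* were nearest to *Slc27a1* (0.26, 0.32 and 0.32). *Fabp3* had its nearest patterns at larger distances, in *Tubb2b*, *Plec* and *Mical2* (0.50, 0.51 and 0.52). The points of these profiles share the same 6 libraries.

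Seen in pairs of single libraries, with no test, a change of at least 2-fold on log2(FPKM + 1) from day 0 was found for 5 genes up and 1 down in BAT on day 4, where 17.1% of all genes were up and 23.2% down, and for 6 up and 1 down on day 6 (16.1% and 25.3%). In WAT, 5 were up and 2 down on day 4 (15% and 19% of all genes) and 6 were up and 1 down on day 6 (18.5% and 14%). The 5 were *Fabp4*, *Fabp5*, *Cd36*, *Slc27a1* and *Acsl1* each time, joined on day 6 by *Gpihbp1* in BAT and by *Lpl* in WAT. *Fabp3* was down in all 4 pairs and *Gpihbp1* in WAT on day 4.

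Between day 4 and day 6, by limma 0 of the 10 genes differed, and 0% of all genes did; at an unadjusted p under 0.05, 1 of the 10 (*Acsl1*) and 561 of all genes differed. *Acsl1* had a difference of -1.10 ± 0.29 (SE, 6 libraries), lower on day 6 in both cell types, and that of *Fabp4* was -0.79 ± 1.078 with a 95% confidence interval of -3.40 to 1.82. The median was -0.44 for the 10 genes and 0.073 for all. In pairs of libraries 0 genes were 2-fold up or down in BAT (3% and 3.46% of all genes), and in WAT 0 were up and 2 down, *Slc27a1* and *Acsl1* (4.42% and 2.16% of all genes). *Fabp4*, *Fabp5*, *Cd36* and *Acsl1* were each lower on day 6 than on day 4 in both cell types, and *Lpl* was higher.

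Between BAT and WAT, 0 of the 10 genes differed by limma and 0% of all genes did; at an unadjusted p under 0.05, 0 of the 10 and 815 of all genes differed. The widest interval was that of *Fabp4*, at -0.53 ± 0.88 (SE) with a 95% confidence interval of -2.66 to 1.60, and the narrowest that of *Acsl1*, at -0.025 ± 0.24 (-0.60 to 0.55). *Slc27a1* (-0.73 ± 0.31), *Fabp3* (0.82 ± 0.45) and *Acsl4* (0.66 ± 0.36) had an adjusted p of 0.674 each. The median was -0.22 for the 10 genes and 0.097 for all.

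In pairs of single libraries, with no test, more genes were at least 2-fold apart between the cell types before induction than on the later days. This held for all genes as well as for the members, so it was not particular to the members. On day 0, 1 gene was at least 2-fold higher in BAT and 3 were lower, where 20.7% of all genes were higher and 13% lower. *Acsl4* was 3.24-fold higher in BAT, whereas *Fabp4* was 3.54-fold and *Fabp5* 2.68-fold higher in WAT, and *Gpihbp1* was the third. These values move with the scaling, since the median of all genes on day 0 was 0.21 higher in BAT in the deposited FPKM, 0.80 higher after scaling to TPM and -0.023 (slightly lower in BAT) with the length trend removed. For *Fabp4* the difference was -1.82, -1.14 and -1.56 under these 3, for *Fabp5* -1.42, -0.74 and -1.28, and for *Acsl4* 1.58, 2.26 and 0.67. WAT day 0 was the shallowest library and had the higher adipocyte marker sum of the day 0 libraries. Most of that sum was *Cfd* (431 FPKM, against 68.6 in BAT). The median of the adipocyte markers was 11.9998 FPKM in WAT and 9.03 in BAT. *Plin1*, *Pparg* and *Dgat2* were higher in BAT on day 0, and the other adipocyte markers were higher in WAT. The part of the depth and of adipocyte RNA in the difference between the cell types was not tested.

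On day 4, 1 gene was at least 2-fold higher in BAT (*Fabp3*) and 1 lower (*Slc27a1*), where 3.51% and 3.08% of all genes were, and on day 6, 1 was higher (*Fabp3*) and 0 lower (1.8% and 4.09% of all genes). *Fabp3* was 7.06-fold higher in BAT on day 4 and 5.32-fold higher on day 6, having been 1.35-fold higher in WAT on day 0. Its exact 95% Poisson intervals did not overlap on either day: on day 4 BAT ran from 1.80 to 3.72 FPKM against 0.121 to 0.871 for WAT, and on day 6 from 2.84 to 5.11 against 0.338 to 1.40. With 1 library on each side, these intervals cover counting error only and not the spread between cultures. The difference of -1.497 for *Slc27a1* on day 4 had gone to -0.27 by day 6. *Cd36*, *Lpl*, *Acsl1*, *Slc27a4*, *Fabp4* and *Fabp5* stayed within 2-fold between the cell types on days 4 and 6.

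**Figure D5:**
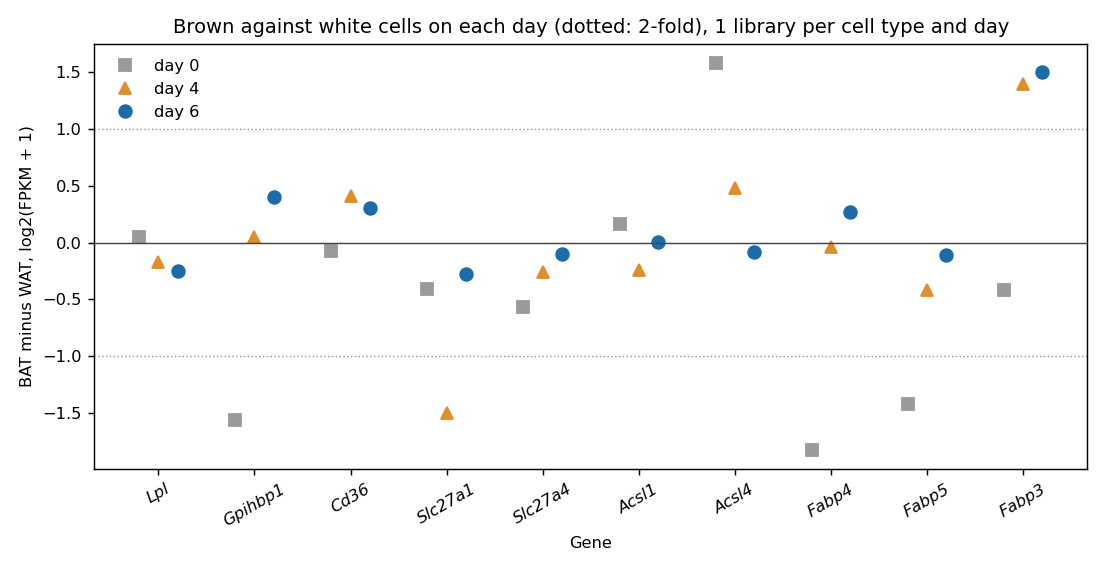
Difference between BAT and WAT in log2(FPKM + 1) for each of the 10 genes on day 0 (grey squares), day 4 (orange triangles) and day 6 (blue circles), with 1 library per cell type and day and dotted lines at a 2-fold difference. *Acsl4*, *Fabp4*, *Fabp5* and *Gpihbp1* lie beyond 2-fold on day 0 alone, *Slc27a1* on day 4 alone, and *Fabp3* on days 4 and 6.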

How the data were processed

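RNA-seq values of BAT and WAT cells on days 0, 4 and 6 were analysed, 1 library per condition. The authors aligned reads to mm9 with TopHat2 2.0.11 and deposited FPKM per gene from Cufflinks 2.1.1; columns named for the subcutaneous depot were read as WAT. The members and gene lists were chosen with earlier results of these data known. Where a symbol was repeated, the entry of highest mean FPKM was kept (3376 of 37841 entries left out). Coordinates are mm9 (promoters GRCm38.p6), and gene models are those of GENCODE M1.

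The 14413 genes that reached 1 FPKM in some library were tested as log2(FPKM + 1) with limma 3.58.1 in R 4.3.3, with terms for cell type and day, a variance trend (2 residual and 4.26 prior degrees of freedom), two-sided tests and Benjamini-Hochberg adjustment over all genes at 0.05. The paper states no test for expression. Pairs of single libraries were described by a 2-fold rule. Since FPKM steps of single-transcript genes gave fragments within 0.1 of a whole number for 82.4% to 88.1% of low values, depth and Poisson intervals were estimated from them. The fit was run on simulated data with known changes and independent noise of the same size for every gene. These data held no difference between cell types in their course, so the run cannot speak to the spread of the real fit. All members were named, and eligible to be named were list genes reaching 10 FPKM in some library (up to 4 per marker list), family paralogs reaching 1, and the 3 nearest patterns per member among the 8387 genes reaching 10. Not every eligible gene is described, and those left out of the lists other than markers did not pass the test. *Rxrg*, *Ppargc1a*, the markers at 0 and *Pecam1*, *Cdh5*, *Krt5*, *Krt14* and *Esr1*, the paralogs under 1 FPKM, and the neighbours and copies of the Fabp genes were named after their values were seen. The alternatives changed the filter (none, or a mean of 5 FPKM), the pseudocount (0.1 or 5), the scaling (median-ratio or TPM) and repeated symbols (summed). Further ones were no variance trend, 1.5-fold and 4-fold rules, each library or day left out and, added after the data were seen, a lowess fit on transcript length (span 0.3) subtracted from the values. Python 3.11.15 was used with numpy 2.4.6, pandas 2.3.3, statsmodels 0.14.6 and matplotlib 3.10.9. Promoter and gene names came from RefSeq. The methylation data and the norepinephrine-treated cells were not analysed here, and 1 gene of the lipase list is not reported here.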

Additional observations from a re-analysis of the deposited data

Results flagged for a closer look

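In the deposited FPKM, a pair of genes had opposite directions of change in BAT and WAT on both later days. The values of *Gpihbp1* were higher than on day 0 in BAT and lower in WAT, so that the change in BAT exceeded that in WAT by 1.60 from day 0 to day 4 and by 1.96 from day 0 to day 6 on the log2(FPKM + 1) scale. The values rest on at most 16 fragments, and the exact 95% Poisson intervals of WAT day 0 (0.975 to 3.49 FPKM), day 4 (0.172 to 1.02) and day 6 (0.353 to 1.47) overlapped, as did those of BAT day 0 (0 to 0.371) and day 4 (0.190 to 1.13). *Acsl4* was lower than on day 0 in BAT and higher in WAT, and the change in BAT minus that in WAT was -1.09 on day 4 and -1.66 on day 6. With the length trend removed the directions were no longer opposite on day 4 (0.16 in BAT and 0.65 in WAT), and on day 6 the change was -0.0094 in BAT and 0.59 in WAT. They remained opposite on days 4 and 6 with median-ratio scaling (-0.38 and -0.65 in BAT, 0.61 and 0.57 in WAT). The same held after scaling to TPM (-1.10 and -1.62 in BAT, 0.56 and 0.78 in WAT). Each pair of values shares its day 0 libraries, and with 1 library per condition the difference between the cell types was not tested.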

How the results depend on the processing

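For days 4 and 6 against day 0, the count of genes that rose (5) and fell (1) was 0 and 0 without the filter on low FPKM. With each library left out in turn it ranged from 2 to 6 for those that rose and from 0 to 1 for those that fell. It was lowest without WAT day 4 (2, *Cd36* and *Acsl1*; 0 fell) and was 3 without BAT day 4 (these and *Slc27a1*; 0 fell). Over all genes, 3153 were called, 0 with no filter, 439 without BAT day 4, 491 without WAT day 4, 1696 without BAT day 6, 2168 without WAT day 6 and 4738 without WAT day 0. With no filter the fitted differences of the 10 genes were unchanged (5.83 for *Fabp4* in both), and the prior degrees of freedom were 0.653 in place of 4.26. Fits with a library left out had 1 residual degree of freedom in place of 2. The cause of the changed counts was not tested. For BAT against WAT and day 6 against day 4, 0 members were called under each alternative run; over all genes the calls reached 9 (without day 0) for the first and 10 (no filter) for the second, against 0.

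Among pairs of libraries, the 1.5-fold rule gave 10 genes in place of 6 for BAT day 4 against day 0, 3 in place of 0 for BAT day 6 against day 4 and 4 in place of 2 for WAT day 6 against day 4. The 4-fold rule, also applied to log2(FPKM + 1), gave 0 for that WAT pair and for BAT against WAT on each day (4, 2 and 1 on days 0, 4 and 6). In FPKM itself *Fabp3* was 7.06-fold higher in BAT on day 4 and 5.32-fold higher on day 6. For BAT day 6 against day 4, a pseudocount of 0.1 and TPM scaling gave 1 each. For WAT day 6 against day 4, median-ratio scaling and removal of the length trend gave 4 each, and a pseudocount of 5 gave 1 on day 4 and 0 on day 6 between BAT and WAT.

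Directions turned only for fitted values that were not called. The difference of days 4 and 6 from day 0 turned for *Gpihbp1* with a pseudocount of 5 (-0.034), with the length trend removed (-0.035) and without BAT day 0, 4 or 6 (-0.87, -0.14 and -0.27; range with a library left out -0.87 to 0.91), and for *Acsl4* with median-ratio scaling (0.039), with the length trend removed (0.35) and without BAT day 0 or 6 (0.59 and 0.18; range -0.78 to 0.59). BAT against WAT turned without day 0 or either of its libraries for *Fabp4* (0.11; range -0.93 to 0.11) and *Gpihbp1* (0.22; range -0.76 to 0.22), for *Acsl1* without day 4 or either of its libraries (0.084; range -0.12 to 0.084) and with TPM (0.21), for *Lpl* with TPM (0.12) and for *Cd36* with the length trend removed (-0.049). Day 6 against day 4 turned without BAT day 6 for *Fabp3* (-0.11), *Gpihbp1* (-0.13) and *Acsl4* (0.49), and without WAT day 4 for *Fabp3* (-0.04) and *Acsl4* (0.069), with ranges of -0.11 to 0.89, -0.13 to 1.02 and -0.62 to 0.49 for these genes in that order. No paired analysis was possible because each cell type and day had 1 library and the labels give no replicate numbers to block on; the fit compares the cell types within days through its term for day. Depth limits *Gpihbp1* and the later values of *Fabp3* in WAT, which rest on 16 or fewer fragments.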
